A study of Mus musculus with 6 samples.

Results

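The 10 genes described here encode the PIWI proteins of the mouse testis and the core factors that make, modify or use their small RNAs: Piwil1, Piwil2, Piwil4, Ddx4, Mael, Mov10l1, Asz1, Pld6, Gtsf1 and Henmt1. They were chosen by name, as the rows of the count table with these symbols, but with earlier results of these data known. Each symbol had 1 row among the 39253 genes of the table, and all 10 passed the filter on low counts that left 16632 genes for testing. RNA was measured in whole testes taken at postnatal day (PND) 12 from 3 wild type (WT) mice and 3 mice with a conditional knockout (cKO) of Tardbp, all of strain C57BL/6, with 1 library per mouse. Tardbp encodes TDP-43, an RNA- and DNA-binding protein. According to the methods of the study, the cKO mice carried 1 floxed and 1 null Tardbp allele (Flox/null) with the Stra8-iCre transgene, which is active in male germ cells from the spermatogonial stage. The null allele is present in every cell of these mice, and the WT mice are not described as carrying Cre or a floxed allele, so the effects of the deletion, of the null allele and of Cre cannot be told apart. Libraries WT 1, WT 2, WT 3 and cKO 1 belonged to batch 2 in the labels, and cKO 2 and cKO 3 to batch 1.

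PIWI proteins are Argonaute-family proteins of the germ line that carry piRNAs, small RNAs that guide the silencing of transposons and the cleavage of other transcripts. In the mouse they act in successive waves: Piwil4 (MIWI2) in fetal prospermatogonia, Piwil2 (MILI) from the fetal testis through the prepachytene stages, and Piwil1 (MIWI) from pachytene spermatocytes onwards. Long single-stranded precursors are handed to the mitochondrial surface by helicases such as Mov10l1 and cut there by Pld6, and the finished 3′ ends are methylated by Henmt1. Much of this happens in germ granules, where Ddx4, Mael and Asz1 are found.

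The promoters of the 3 PIWI genes are shown because these genes differ most in the stage at which they are known to act. Each sequence runs 5′ to 3′ on the strand of the gene, from 250 bases before the first base of the GENCODE canonical transcript to 50 bases into it, in genome build GRCm39. Capitals mark the E-box CACGTG, the E2F motif GCGGGAA or the STRA8 motif CNCCTCAG on either strand. The short MYB motif AACNG was counted but not marked. The promoter of Piwil1 lies at chr5:128812988-128813287 on the plus strand, that of Piwil2 at chr14:70666516-70666815 on the minus strand and that of Piwil4 at chr9:14651987-14652286 on the minus strand.
Piwil1: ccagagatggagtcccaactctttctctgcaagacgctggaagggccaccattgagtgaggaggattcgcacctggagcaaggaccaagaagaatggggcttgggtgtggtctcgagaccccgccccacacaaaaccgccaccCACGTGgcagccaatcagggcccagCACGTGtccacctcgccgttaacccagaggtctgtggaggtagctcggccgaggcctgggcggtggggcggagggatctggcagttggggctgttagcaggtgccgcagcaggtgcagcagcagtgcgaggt
Piwil2: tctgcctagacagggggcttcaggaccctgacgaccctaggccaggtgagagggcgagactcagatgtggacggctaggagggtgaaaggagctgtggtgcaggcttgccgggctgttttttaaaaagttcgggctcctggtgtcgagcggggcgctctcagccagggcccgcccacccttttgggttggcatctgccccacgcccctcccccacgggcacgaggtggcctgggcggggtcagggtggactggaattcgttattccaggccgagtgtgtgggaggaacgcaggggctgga
Piwil4: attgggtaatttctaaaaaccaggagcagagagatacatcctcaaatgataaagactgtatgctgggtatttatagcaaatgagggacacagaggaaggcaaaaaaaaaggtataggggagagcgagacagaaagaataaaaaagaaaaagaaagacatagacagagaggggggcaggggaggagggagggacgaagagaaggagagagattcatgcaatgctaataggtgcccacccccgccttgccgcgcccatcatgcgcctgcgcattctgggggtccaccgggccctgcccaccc

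The E-box, which is read by basic helix-loop-helix factors, was present in 4 of the 10 promoters, and 9.7% of the 15637 promoters searched held it. Piwil1 had 2 copies, with first bases at -107 and -82 from the start site. The other 3 promoters with an E-box had 1 copy each, at -205 in Mael, -134 in Mov10l1 and -48 in Pld6. They are shown in windows of 40 bases on the strand of the gene, at chr1:166066514-166066553, chr15:88866934-88866973 and chr11:59678494-59678533, with the motif in capitals.
Mael: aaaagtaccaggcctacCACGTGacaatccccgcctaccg
Mov10l1: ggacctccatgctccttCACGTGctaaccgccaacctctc
Pld6: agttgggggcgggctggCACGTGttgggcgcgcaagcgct
The E2F motif was found only in Ddx4 among the 10 (at 30 bases after the start, against 7.4% of all promoters) and the STRA8 motif only in Asz1 (at 37 bases after the start, against 8.4%). The MYB motif was in 9 of the 10, all but Piwil4, and in 78.4% of all promoters. None of the marked sites overlapped another. These matches describe the letters in the window and not binding.

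Tardbp itself was measured at 319, 334 and 313 CPM (counts relative to the TMM-scaled size of the library) in the WT libraries, and at 256, 112 and 137 CPM in the cKO libraries, given here and later in the order of their numbers. All 3 cKO libraries were below all 3 WT libraries, and cKO 1 was closest to WT, at 79.5% of the WT mean. The genotype difference was tested with edgeR in a model with a batch term, as the study's methods have it, and again without that term. Because batch 1 held cKO libraries alone, the fit with the term sets cKO 1 against the 3 WT libraries, and only the fit without it uses all 3 cKO libraries for the difference. For Tardbp the log2 fold change was -0.33 with the batch term (SE 0.125, edgeR adjusted p = 0.107) and -0.94 without it (SE 0.288, edgeR adjusted p = 0.0416). Libraries held 30028685 to 43371284 counts, and 1 CPM stood for 30.5 to 40.4 counts, so the lowest count among the 10 genes, 103 for Piwil1 in cKO 3, and the highest, 10275 for Ddx4 in WT 2, were well above the filter of 0.5 CPM in 3 libraries. Marker genes of testis cells were read as well, and those that passed the filter were above 0 in all 6 libraries. Sycp2l, Pgk2, Spag6l and Adam3 did not pass it.

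Of the 10 genes, 9 were lower in every cKO library than in every WT library, and Piwil4 was the exception. By edgeR with the batch term (adjusted p under 0.05) 2 of the 10 were lower, Ddx4 and Asz1, where 9.24% of all genes tested were called lower. None was higher, where 6.91% of all genes were, and none was higher by limma-trend or by DESeq2. At an unadjusted p under 0.05, 6 of the 10 were lower and 0 higher, beside 18.8% and 16.5% of all genes tested. Without the batch term 7 of the 10 were lower by edgeR, and Piwil1, Piwil4 and Gtsf1 did not pass, beside 16.7% of all genes called lower and 17.1% called higher. In the batch 2 libraries alone, cKO 1 against the 3 WT libraries, 7 of the 10 were lower by edgeR, beside 14% of all genes, and the spread in that fit comes from the WT mice alone. Leaving out any 1 WT library lowered the count to 0 without the batch term, and to 0 or 1 with it. The number called lower over all 16632 genes fell as well. With the batch term it fell from 1537 to 527, 5 and 218 when WT 1, WT 2 or WT 3 was left out. Without the term it fell from 2783 to 451, 1 and 290. The median log2 fold change of the 10 was -0.76 with the batch term and -1.09 without it, while that of all genes tested was 0.01 and 0.04. Groups that did not overlap in this direction were found in 27.1% of all genes tested, and in the opposite direction in 25.8%. In whole testis, fewer germ cells and less RNA per germ cell cannot be told apart.

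**Figure D1:**
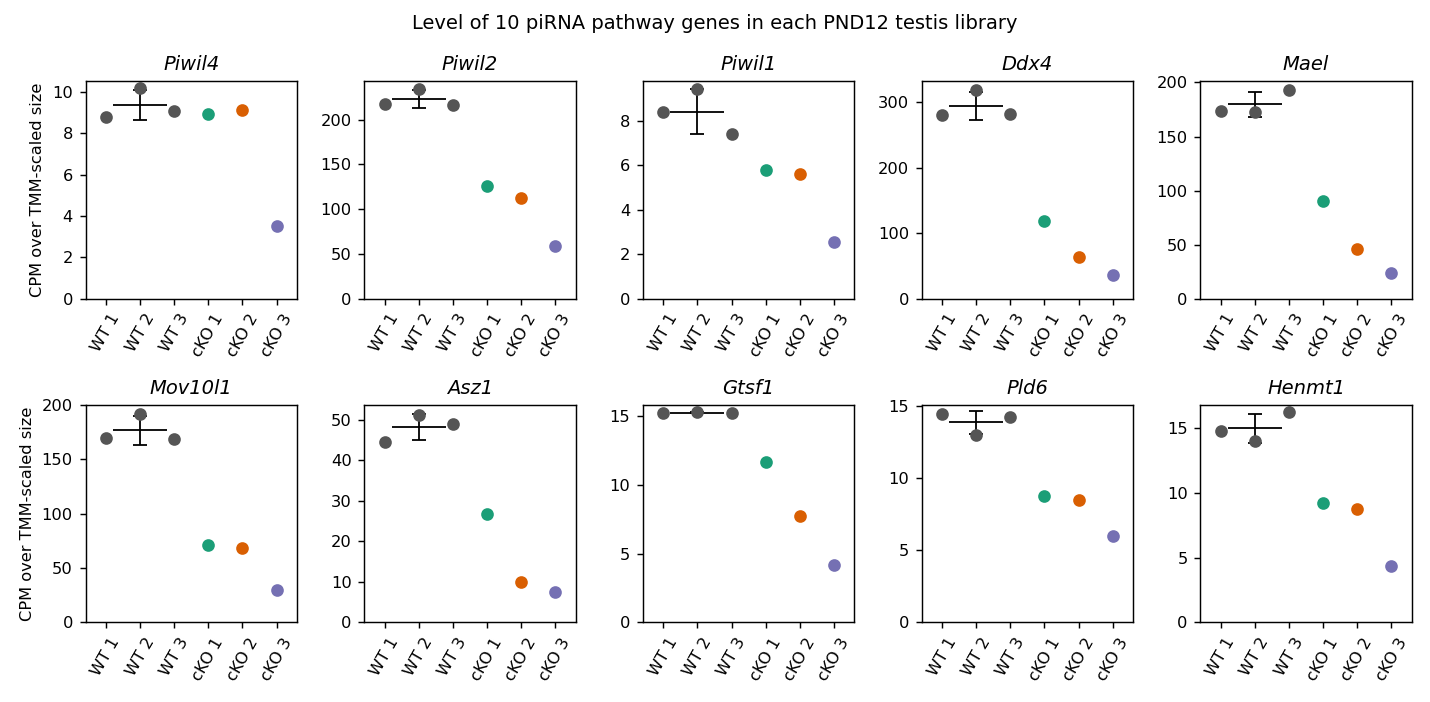
Level of each of the 10 genes in each library, in CPM over TMM-scaled library size (linear axes from 0, one panel per gene), with points for single libraries and a bar for the WT mean ± SD. In 9 panels the 3 cKO points sit below the 3 WT points, and in the Piwil4 panel only cKO 3, at 3.54 CPM, stands apart.

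Among the PIWI genes, Piwil4, the fetal and nuclear member that directs methylation of transposons, was the least changed. It was measured at 8.80, 10.2 and 9.11 CPM in the WT libraries (mean 9.37 ± 0.736, SD, n = 3) and at 8.96, 9.14 and 3.54 CPM across the cKO mice. The groups overlapped, since cKO 1 and cKO 2 lay within the WT range, at 95.6% and 97.5% of the WT mean, and cKO 3 alone was low, at 37.8%. The log2 fold change was -0.06 with the batch term (SE 0.447, edgeR adjusted p = 0.930) and -0.38 without it (SE 0.347, edgeR adjusted p = 0.408). A p of this size does not show that Piwil4 was the same in both genotypes.

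Piwil2, the PIWI protein of prepachytene piRNAs, was measured at 217, 234 and 216 CPM in the WT libraries (mean 223 ± 10.2, SD, n = 3) and at 126, 112 and 59.4 CPM across the cKO mice. The groups did not overlap, and the cKO libraries held 56.7%, 50.5% and 26.7% of the WT mean. The log2 fold change was -0.82 with the batch term (SE 0.304, edgeR adjusted p = 0.103) and -1.16 without it (SE 0.260, edgeR adjusted p = 0.0182).

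Piwil1, the PIWI protein of pachytene piRNAs, stood at 8.42, 9.46 and 7.40 CPM in the WT libraries (mean 8.43 ± 1.03, SD, n = 3), and at 5.80, 5.62 and 2.55 CPM in the cKO libraries. Here too the groups did not overlap, with 68.8%, 66.6% and 30.3% of the WT mean left in cKO 1, cKO 2 and cKO 3. Neither fit called it, with a log2 fold change of -0.54 with the batch term (SE 0.415, edgeR adjusted p = 0.384) and of -0.86 without it (SE 0.324, edgeR adjusted p = 0.0734).

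The PIWI genes were also compared with each other. Within each library, where normalization between libraries plays no part, the log2 ratio of Piwil4 to Piwil2 CPM was -4.63, -4.52 and -4.57 in the WT libraries and -3.82, -3.62 and -4.07 in the cKO libraries. Every cKO ratio was above every WT ratio, and the mean difference was 0.74 on the log2 scale (exact two-sided permutation test, p = 0.1). The log2 ratio of Piwil1 to Piwil2 CPM was -4.69, -4.63 and -4.87 in WT and -4.44, -4.32 and -4.54 in cKO. These groups did not overlap either, and the mean difference was 0.29 on the log2 scale (exact two-sided permutation test, p = 0.1). With 3 libraries against 3 the smallest p this test can give is 0.1, and the adjusted p over these 2 comparisons is also 0.1 by the exact test. Only the difference between genotypes is read from these ratios, since CPM is not scaled for transcript length.

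The germ granule factors Ddx4, Mael and Asz1 kept the smallest shares of their WT mean in cKO 2 and cKO 3. Ddx4, the mouse Vasa homologue and a DEAD-box RNA helicase used as a general germ cell marker, was measured at 282, 319 and 283 CPM in the WT libraries (mean 294 ± 21.0, SD, n = 3) and at 118, 63.4 and 35.5 CPM in the cKO libraries. Its levels in cKO 1, cKO 2 and cKO 3 were 40.1%, 21.5% and 12.1% of the WT mean, so that the highest cKO library was far below the lowest WT library. Ddx4 was lower in both fits, by a log2 fold change of -1.32 with the batch term (SE 0.289, edgeR adjusted p = 0.0292) and of -2.03 without it (SE 0.389, edgeR adjusted p = 0.0139). Leaving out WT 1, WT 2 or WT 3 ended the call with the batch term, at edgeR adjusted p values of 0.0548, 0.082 and 0.0685.

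Asz1 (GASZ), a scaffold that anchors germ granules to mitochondria, was measured at 44.7, 51.1 and 49.0 CPM in the WT libraries (mean 48.3 ± 3.30, SD, n = 3). The cKO libraries held 26.9, 10.02 and 7.503 CPM, or 55.6%, 20.8% and 15.5% of the WT mean. The gap between cKO 1 and the other 2 cKO libraries was wide, and cKO 1 was still below every WT library. Asz1 was lower in both fits, by a log2 fold change of -0.85 with the batch term (SE 0.176, edgeR adjusted p = 0.0263) and of -1.71 without it (SE 0.439, edgeR adjusted p = 0.0258). Leaving out WT 2 or WT 3 ended the call with the batch term, at edgeR adjusted p values of 0.0767 and 0.0721. Without that term, leaving out any 1 library but cKO 1 ended it, at edgeR adjusted p values from 0.0626 to 0.0874.

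Mael, a germ granule protein needed for transposon silencing, was at 174, 173 and 193 CPM in the WT libraries and at 90.7, 46.1 and 24.2 CPM in the cKO libraries. It thus resembled Ddx4 in its order, with 50.5%, 25.7% and 13.5% of the WT mean in cKO 1, cKO 2 and cKO 3. Mael passed only without the batch term, at a log2 fold change of -1.74 (SE 0.418, edgeR adjusted p = 0.0217), and with the term the value was -0.99 (SE 0.306, edgeR adjusted p = 0.0670).

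Mov10l1, the RNA helicase that binds piRNA precursors, was measured at 170, 192 and 169 CPM in the WT libraries (mean 177 ± 13.2, SD, n = 3) and at 71.4, 68.4 and 29.6 CPM in the cKO libraries. Unlike Mael, it was nearly equal in cKO 1 and cKO 2, at 40.3% and 38.7% of the WT mean, with cKO 3 at 16.7%. Its log2 fold change was -1.31 with the batch term (SE 0.401, edgeR adjusted p = 0.0645) and -1.65 without it (SE 0.310, edgeR adjusted p = 0.0135).

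The enzymes that cut and finish piRNAs kept larger shares of their WT mean in these libraries. Pld6, the mitochondrial endonuclease known as Zucchini in Drosophila, was measured at 14.4, 12.99 and 14.2 CPM in the WT libraries and at 8.81, 8.53 and 5.99 CPM in the cKO libraries. It kept the largest share of its WT mean in cKO 3 of all 10 genes, 43.1%, after 63.4% and 61.4% in cKO 1 and cKO 2. The log2 fold change was -0.66 with the batch term (SE 0.240, edgeR adjusted p = 0.0989) and -0.84 without it (SE 0.196, edgeR adjusted p = 0.0206).

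Henmt1, the methyltransferase that protects piRNA 3′ ends, was measured at 14.8, 14.0 and 16.2 CPM in the WT libraries and at 9.18, 8.71 and 4.33 CPM in the cKO libraries. The groups did not overlap, with 61.3%, 58.2% and 28.9% of the WT mean in cKO 1, cKO 2 and cKO 3. The log2 fold change was -0.71 with the batch term (SE 0.357, edgeR adjusted p = 0.201) and -1.02 without it (SE 0.285, edgeR adjusted p = 0.0323).

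Gtsf1, a small zinc finger protein that assists cleavage by PIWI proteins, was measured at 15.2, 15.3 and 15.3 CPM in the WT libraries, the tightest of the 10 genes (SD 0.0289, n = 3), and at 11.7, 7.77 and 4.21 CPM in the cKO libraries. The 3 cKO libraries were spread evenly below this level, at 76.6%, 50.9% and 27.6% of the WT mean. Neither fit called Gtsf1, with a log2 fold change of -0.38 with the batch term (SE 0.309, edgeR adjusted p = 0.406) and of -0.95 without it (SE 0.335, edgeR adjusted p = 0.0600).

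**Figure D2:**
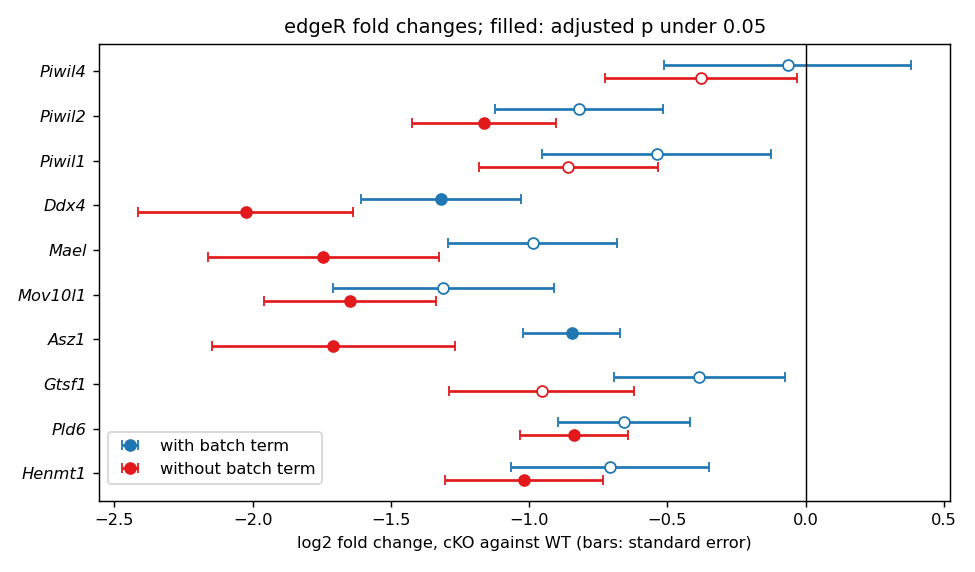
Log2 fold change of each of the 10 genes, cKO against WT, from the edgeR fits with and without the batch term, with the standard error as bars and filled points where the adjusted p is under 0.05. Ddx4 and Asz1 are filled in both fits, 5 further genes only without the batch term, and Piwil1, Piwil4 and Gtsf1 in neither.

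The cKO libraries kept nearly the same order from gene to gene. In all 10 genes cKO 3 was the lowest of the 6 libraries, as it was in 23.8% of all genes tested and in 62.6% of the 4501 genes whose cKO libraries were all below the WT libraries. The full order of cKO 1 above cKO 2 above cKO 3 held for 9 of the 10 genes, Piwil4 being the exception, against 19.3% of all genes and 46.7% of those 4501. In some of them cKO 1 and cKO 2 were close. They were at 5.80 and 5.62 CPM in Piwil1, 8.81 and 8.53 in Pld6, 9.18 and 8.71 in Henmt1, and 71.4 and 68.4 in Mov10l1. The step from cKO 2 to cKO 3 lies within batch 1, and in the step from cKO 1 to cKO 2 batch and mouse cannot be told apart. Summed over the 10 genes, the level was 948 to 1031 CPM in the WT libraries, and 478, 340 and 177 CPM across the cKO mice.

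**Figure D3:**
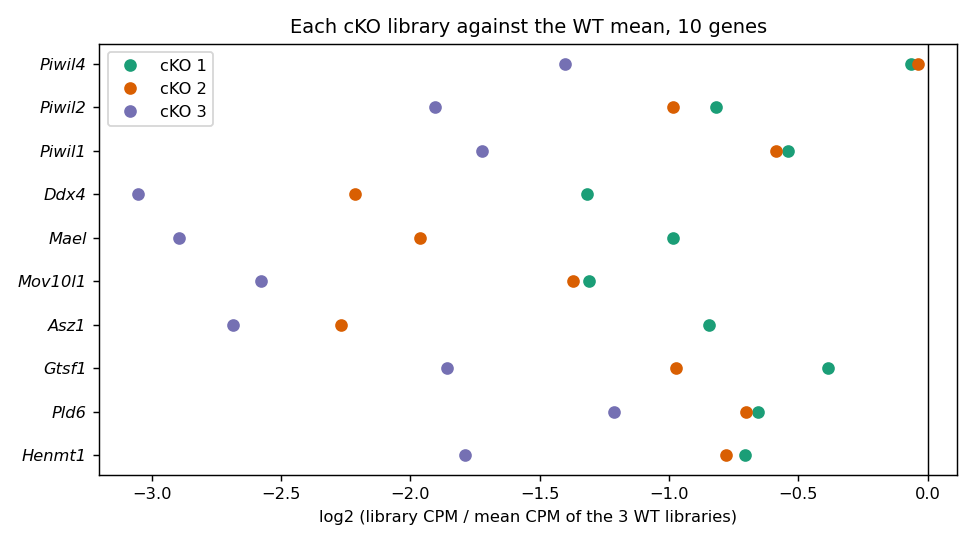
Log2 ratio of each cKO library to the mean of the 3 WT libraries for the 10 genes (x axis), with 1 point per cKO library and a line at 0 for the WT mean. The cKO 3 point is the leftmost in every row, and in the rows of Ddx4, Mael and Asz1 the cKO 2 point lies well to the left of cKO 1, at 21.5%, 25.7% and 20.8% of the WT mean.

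The other genes of the pathway were counted over a list of 26, of which 23 were tested. Gtsf1l and Gtsf2 were in the table but below the filter, and Dnmt3c was not analysed here. By edgeR with the batch term 6 of the 23 were lower and none was higher, beside 9.24% and 6.91% of all genes tested. None was higher by limma-trend or by DESeq2 either. At an unadjusted p under 0.05, 12 were lower and 0 higher, beside the 18.8% and 16.5% of all genes given above. Without the batch term 16 were lower and none was higher, beside 16.7% and 17.1% of all genes. At an unadjusted p under 0.05 that fit had 20 lower and 1 higher, beside 23.4% and 25% of all genes tested. The list's median log2 fold change was -0.61 with the batch term and -0.87 without it. Of the 23, 20 were lower in every cKO library than in every WT library, as were 27.1% of all genes tested. Summed over the 23 genes, the level was 1802 to 2040 CPM in WT and 954, 816 and 543 CPM across the cKO mice.

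The 6 genes called with the batch term were Tdrkh, Stk31, Tex15, Rnf17, Tdrd7 and Tdrd12. Tex15, a nuclear partner of MIWI2 needed for transposon methylation, was the furthest down, from 530, 684 and 482 CPM in WT to 157, 80.1 and 38.7 CPM in cKO. Its log2 fold change was -1.85 with the batch term (SE 0.401, edgeR adjusted p = 0.0284). Tdrkh, the Tudor protein that holds PIWI proteins at mitochondria while piRNA 3′ ends are trimmed, was measured at 81.9, 90.0 and 92.3 CPM in WT and at 35.0, 23.01 and 14.5 CPM in cKO (log2 fold change -1.33, SE 0.238, edgeR adjusted p = 0.019995). In both genes the cKO libraries kept the order seen in the core genes.

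Stk31, which joins a Tudor and a kinase domain, was measured at 111, 134 and 118 CPM in WT and at 52.0, 25.04 and 16.2 CPM in cKO (log2 fold change -1.22, SE 0.234, edgeR adjusted p = 0.0219). Rnf17, a Tudor protein that restrains the ping-pong amplification of piRNAs in meiotic cells, was measured at 126, 141 and 122 CPM in WT and at 52.8, 24.3 and 13.1 CPM in cKO (log2 fold change -1.30, SE 0.296, edgeR adjusted p = 0.0321). Tdrd12, which acts in secondary piRNA production, was measured at 27.8, 28.1 and 28.5 CPM in WT and at 13.9, 12.5 and 7.78 CPM in cKO (log2 fold change -1.01, SE 0.252, edgeR adjusted p = 0.0389). Tdrd7, a germ granule Tudor protein, changed least of the 6, from 63.5, 71.3 and 67.7 CPM in WT to 44.8, 43.7 and 35.6 CPM in cKO (log2 fold change -0.59, SE 0.141, edgeR adjusted p = 0.0350).

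**Figure D4:**
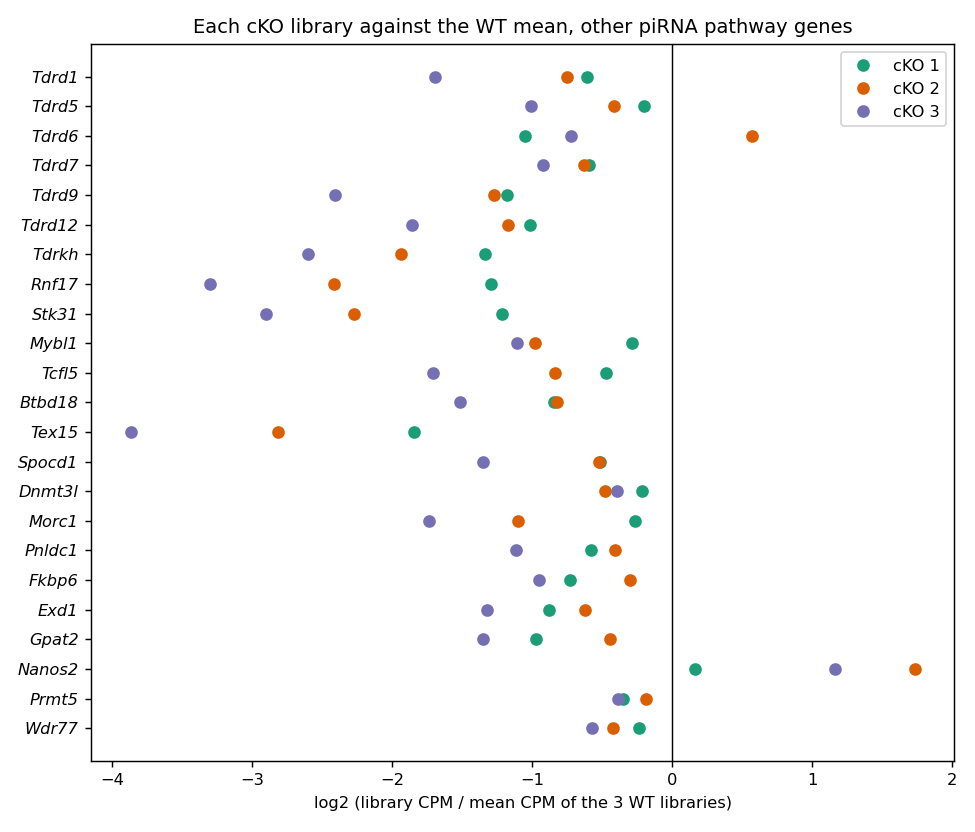
Log2 ratio of each cKO library to the mean of the 3 WT libraries (x axis) for the 23 other piRNA pathway genes tested, with 1 point per cKO library and a line at 0 for the WT mean. Tex15, Rnf17 and Stk31 reach the lowest values, at 6.84%, 10.1% and 13.4% of the WT mean in cKO 3, and Nanos2 has all its points to the right of the line. Nanos2 was near the filter, at 0.734, 0.434 and 0.721 CPM in WT and 0.706, 2.09 and 1.41 CPM in cKO. Its groups overlapped and neither fit called it (edgeR adjusted p = 0.834 with the batch term and 0.0814 without it).

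The microRNA and siRNA pathway, which shares the Argonaute fold but works in somatic cells as well, had a median near that of all genes. Of its 14 genes 2 were lower and 1 was higher by edgeR with the batch term, beside 9.24% and 6.91% of all genes tested. The median log2 fold change was -0.12 with that term and 0.12 without it. Ago4, an Argonaute protein known from meiotic germ cells, was lower, at 20.1, 25.6 and 21.7 CPM in WT and 9.60, 10.4 and 7.97 CPM in cKO (log2 fold change -1.23, SE 0.227, edgeR adjusted p = 0.0209). Drosha, the nuclease that releases microRNA precursors, was lower by a small amount, from 236, 242 and 249 CPM in WT to 182, 210 and 180 CPM in cKO (log2 fold change -0.41, SE 0.110, edgeR adjusted p = 0.0455). Ago2, the slicing Argonaute of somatic tissues, was higher, at 32.9, 32.5 and 27.6 CPM in WT and 44.7, 77.9 and 91.3 CPM in cKO (log2 fold change 0.53, SE 0.140, edgeR adjusted p = 0.0448). Without the batch term, Ago4 was lower and Ago2, Prkra, Mov10 and Tnrc6b were higher by edgeR, and Drosha did not pass (edgeR adjusted p = 0.0515).

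Markers of differentiating and meiotic germ cells were read beside the 10 genes. Over all genes tested, edgeR called 9.24% lower with the batch term and 16.7% without it. In 27.1% all cKO libraries were below all WT libraries. All 19 tested markers of preleptotene to zygotene spermatocytes were below WT in every cKO library, 17 were lower by edgeR with the batch term, and their summed level went from 2107 to 2815 CPM in WT to 504, 303 and 141 CPM across the cKO mice. Of this list Meiob, a factor of meiotic recombination, was measured at 18.8, 29.3 and 18.5 CPM in WT and at 1.14, 1.34 and 0.421 CPM in cKO, and Rad21l, a meiotic cohesin, at 27.7, 46.0 and 39.2 CPM in WT and 7.55, 4.43 and 3.22 CPM in cKO. Of 8 markers of differentiating spermatogonia 4 were lower (Kit, Rhox13, Stra8 and Dmrtb1), and the sum was 1083 to 1149 CPM in WT and 674, 695 and 468 CPM in cKO. Of 7 tested pachytene markers 1 was lower, Hspa2, by edgeR with the batch term, and the sum was 163 to 192 CPM in WT and 104, 108.9 and 91.0 CPM in cKO. The cKO 3 library was the lowest in these 3 sums as in the 10 genes.

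Of the 12 markers of undifferentiated spermatogonia few passed with the batch term. For the counts that follow, 9.24% of all genes tested were lower and 6.91% higher with that term, and 16.7% and 17.1% without it. By edgeR with the batch term 1 of the 12 was higher, Etv5, and none was lower (1 lower at an unadjusted p under 0.05). Lin28a had a log2 fold change of -0.90 (edgeR adjusted p = 0.114). Without that term Etv5, Gfra1, Ret and Eomes were higher by edgeR and Lin28a was lower (log2 fold change -1.02, edgeR adjusted p = 0.0231). Their summed level was 450 to 469 CPM in WT and 421, 636 and 484 CPM across the cKO mice. Of 15 Sertoli cell markers 10 were higher with the batch term, Gdnf and Amh among them, and their sum was 7511 to 8894 CPM in WT and 11647, 17009 and 18504 CPM in cKO. Gata1 and Rhox5 were lower in that fit, at 65.6% and 59.0% of the WT mean in cKO 1. In cKO 2 and cKO 3 Gata1 was at 124% and 102% and Rhox5 at 123% and 94.7%, and neither passed without the batch term (edgeR adjusted p = 0.883 and 0.730). Among 8 Leydig cell markers Nr5a1 and Insl3 were higher, among 6 endothelial markers Kdr was higher, and of 6 peritubular myoid and 7 macrophage markers none passed by edgeR with the batch term, with 0 and 1 of them at an unadjusted p under 0.05. Without that term the macrophage markers Csf1r and Mrc1 were higher (edgeR adjusted p = 0.0218 and 0.0299) and the myoid marker Cnn1 was lower (edgeR adjusted p = 0.0320). The macrophage sum was 130 to 152 CPM in WT and 167, 230 and 269 CPM in cKO. Stra8, Dmrtb1, Clgn, Ldhc, Acr, Ccna1, Gata1, Rhox5, Gfra1, Ret, Eomes, Prkra, Mov10, Tnrc6b and Nanos2 are named here after their values were seen. The part of cell type shares in the levels of the 10 genes was not tested.

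**Figure D5:**
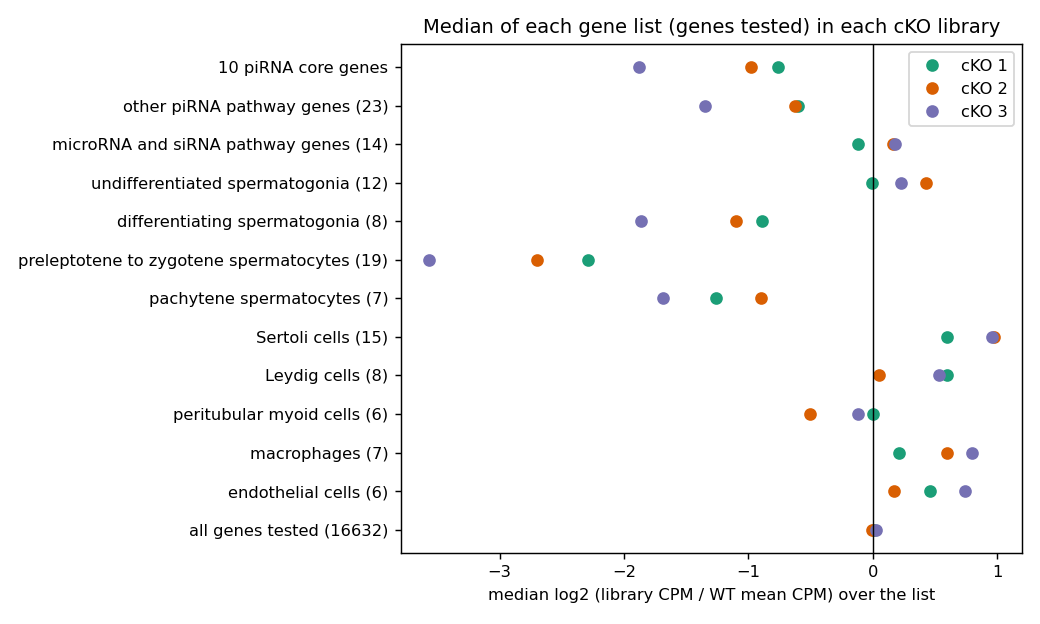
Median log2 ratio of each cKO library to the WT mean (x axis) over each gene list, with 1 point per cKO library, the number of genes tested in brackets and a line at 0 for the WT mean. The medians of the 10 core genes, -0.76, -0.98 and -1.88 in cKO 1, cKO 2 and cKO 3, lie between those of the preleptotene to zygotene markers, -2.29, -2.70 and -3.56, and that of all genes tested, near 0. The medians of the differentiating spermatogonia markers, -0.89, -1.10 and -1.87, lie near those of the core genes. So do those of the pachytene markers in cKO 2 and cKO 3, at -0.90 and -1.69, with -1.26 in cKO 1.

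For each PIWI gene the 3 genes outside the 10 with the most similar profile over the 6 libraries were taken from 13676 tested genes whose mean log2 CPM reached 1, by the Euclidean distance between log2 CPM values centred on their mean. Nearest to Piwil2 were Dennd2c, Nek2 and Cdc6, at distances of 0.148, 0.160 and 0.167, where the median distance of all candidates was 1.84. Nek2 is a centrosomal kinase and Cdc6 loads the replicative helicase. Nek2 was measured at 60.8, 65.4 and 64.0 CPM in WT and at 34.5, 30.1 and 18.1 CPM in cKO. Among those nearest to Piwil1 were 4933430I17Rik and Ccdc40, at distances of 0.255 and 0.268 against a median of 1.63. Nearest to Piwil4 were Cacna1b, Cd274 and Myh3, at 0.224, 0.264 and 0.264 against a median of 1.43. By the way they were chosen, each of these was also lowest in cKO 3, at 38.0%, 41.5% and 36.5% of the WT mean. These distances share the 6 libraries and their depth and are given as a description.

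TDP-43 is known to bind UG-rich RNA, so runs of at least 6 GT repeats on the sense strand of the 10 genes were read from GRCm39. Such runs were found in 9 of the 10 genes, all but Pld6, beside 71.3% of 15637 genes searched and 91.1% of the 5553 genes within the length range of the 10, 21039 to 72287 bases. All 62 runs in the 10 genes lay outside every annotated exon, within the span of the gene over all its transcripts. The span of Piwil1 begins at chr5:128779588, before the start of its canonical transcript at chr5:128813238. Its longest run, at chr5:128785832-128785881, is among those before that start, which are thus outside the canonical transcript. Piwil4 had the most, 15, then Mael with 11, Piwil1 and Mov10l1 with 9 each, Ddx4 with 6, Piwil2 with 5, Henmt1 with 3, and Asz1 and Gtsf1 with 2 each. Piwil4, the gene whose groups overlapped, and Ddx4, the gene with the lowest fold change in both fits, are taken as examples. A link between these runs and the levels was not tested. The longest run of each is shown with 10 flanking bases on each side, repeats in capitals, at chr9:14638486-14638531 for Piwil4 and chr13:112779991-112780034 for Ddx4, both on the minus strand and with coordinates of the repeat alone.
Piwil4: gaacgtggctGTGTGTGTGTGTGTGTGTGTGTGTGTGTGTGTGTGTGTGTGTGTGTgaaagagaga
Ddx4: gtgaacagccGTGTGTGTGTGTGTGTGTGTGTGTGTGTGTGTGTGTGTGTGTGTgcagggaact
The run in Piwil4 has 23 repeats and that in Ddx4 has 22. The genes lie at chr9:14607526-14652036 (Piwil4, 20 exons in the canonical transcript) and chr13:112734867-112789009 (Ddx4, 22 exons), and no measurement of binding at these runs was analysed here.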

How the data were processed

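RNA from whole testes of 3 WT and 3 cKO mice was sequenced as stranded poly(A) libraries. The authors used Salmon 1.2.0, with NCBI mouse transcripts as the index and GRCm39 as decoy. The deposited expected counts are the authors' estimated counts per gene, corrected for sequence and GC bias, in which reads that map to several genes are shared. The deposited log2 values are the authors' TMM-normalized log2 CPM, and recomputing them from the counts gave differences of at most 5.15e-14. Counts were rounded, genes with at least 0.5 CPM in at least 3 libraries kept (16632 of 39253), and tested with edgeR 4.0.16 (quasi-likelihood, TMM, Benjamini-Hochberg over all genes) with batch and genotype in the model. limma 3.58.1, DESeq2 1.42.0, a model without batch, other scalings and filters, a replicate block and leaving out single libraries were alternatives. The test was checked on simulated data. The edgeR p-values of the fits with and without the batch term measure the spread between mice of 1 genotype. With the term that spread comes from the 3 WT mice and from cKO 2 against cKO 3, and cKO 1 adds none. Named genes beside the 10 were the 6 and 3 with the smallest p among the other piRNA and the microRNA pathway genes, the 2 with the smallest p in a marker list (not all are given), and the 3 nearest profiles per PIWI gene, 1 of which is not reported here. Members and lists were chosen with earlier results of these data known. Sequences were read from GRCm39 with GENCODE vM39 by Python 3.11.15 and pyfaidx 0.9.0.4.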

Additional observations from a re-analysis of the deposited data

How the results depend on the processing

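The count of the 10 core genes lower in cKO was 2 by edgeR with the batch term, and it was 7 without that term, 7 in the batch 2 libraries alone, 8 by limma-trend without the term and 5 with no filter on low counts. The other piRNA pathway genes lower in cKO, 6 with the batch term, were 16 without it, 14 in batch 2 alone, 17 by limma-trend without the term, 11 by DESeq2 and 10 with no filter. Over all genes 2687 passed with the batch term, 5624 without it, 4178 in batch 2 alone and 5705 by limma-trend without the term. Of all genes tested, 1537 were lower with the batch term, 2783 without it and 3021 by limma-trend without the term. DESeq2 with the term called 2205 lower, and with no filter 1769 of 28169 genes were lower. The cause of these changes was not tested. With the replicate block 2 core genes were lower beside the batch term and 8 without it, 4 and 15 of the other pathway genes, and 1217 and 4285 of all genes. Beside the batch term the block ended the call of Asz1 (edgeR adjusted p = 0.0570) and added Mov10l1 (edgeR adjusted p = 0.0415). Same-numbered libraries did not deviate together (correlations over 16632 genes of -0.0973, -0.0628 and 0.00775). No pairing of the mice by number was seen in these values. They cannot exclude such pairing, because batch differed among the cKO libraries and not among the WT libraries. Piwil4 turned to a log2 fold change of 0.03 (0.025724) with the replicate block beside the batch term.

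Leaving out 1 library at a time, with or without the batch term, the core genes lower ran from 0 to 9, the other pathway genes lower from 0 to 20 and higher from 0 to 1, and all genes that passed from 1 to 10286. The lowest of these counts came without WT 2, which left 12 genes with the batch term and 1 without it, and the highest without cKO 1 and the batch term. The log2 fold change of Piwil4 ran from -0.59 to 0.0012. Ddx4 lost its call without any 1 of the WT libraries in either fit. Asz1 lost its call without WT 2 or WT 3 in either fit, and, without the batch term, also without WT 1, cKO 2 or cKO 3. With the batch term cKO 1 cannot be left out. None of the core genes was called higher in any alternative. The ratios of Piwil4 and Piwil1 to Piwil2 kept their direction in every leave-one-out.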
